A study of Mus musculus with 2 samples.

Results

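The hypoxia pathway was described through 10 genes: the HIF subunits Hif1a, Epas1 and Arnt, the oxygen-sensing prolyl hydroxylases Egln1, Egln2 and Egln3, the ubiquitin ligase subunit Vhl, and the HIF targets Ankrd37, Adm and Car9. They were chosen by symbol, with earlier results of these data known, and all 10 were found among 55536 annotated genes. The RNA came from heart tissue of adult male mice aged 8-10 months, of the strain given as 5xFAD/CAST. The 5xFAD transgenes are driven in neurons by the Thy1 promoter, and CAST is a wild-derived strain. The 2 libraries form a single group, called library 1 and library 2 after their replicate numbers. Both carry 1 donor identifier while being labelled biological replicates 1 and 2, and so their spread may be technical. With no other group, no condition was compared and no p-value was computed.

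In well-oxygenated cells, prolyl hydroxylases of the Egln family use oxygen to hydroxylate the HIF alpha proteins, and the product of Vhl then marks the hydroxylated proteins for destruction. When oxygen is scarce the alpha proteins persist, pair with the product of Arnt and switch on genes of glycolysis, blood vessel growth and pH control. Much of this control acts on protein stability, so the RNA levels below describe the supply of transcripts and not the activity of the pathway.

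Total RNA was sequenced after reduction of ribosomal RNA, from 300 ng per library. The annotated genes held 39668202 expected counts in library 1 and 36926511 in library 2. Values are TPM, abundance scaled for transcript length and library total, from the deposited gene tables in the column layout of RSEM, with the mean ± SD over the libraries (n = 2). Deposited kallisto-layout tables, summed per gene, gave another estimate. The libraries were not duplicates, since their counts over 16092 genes had a chi-square of 5.64 relative to its degrees of freedom. Mitochondrial transcripts take part of each total, and with TPM recomputed outside the mitochondrial chromosome all levels are higher (Hif1a 26.1 in place of 14.8 TPM). The cardiomyocyte markers Myh6, Tnnt2, Actc1, Ryr2 and Pln were all present, the lowest of them at 296 TPM. The 5 adipocyte markers (Adipoq, Plin1, Cfd, Cidec and Ucp1) summed to 10.04 TPM in library 1 and 37.9 in library 2, and the 4 atrial markers (Myl4, Myl7, Sln and Nppa) to 1163 and 1551. The 6 endothelial markers (Pecam1, Cdh5, Kdr, Tie1, Egfl7 and Emcn) summed to 180 TPM in library 1 and 164 in library 2. In bulk tissue, fewer cells of a type and less RNA per cell cannot be told apart.

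Of the 10 genes, 9 reached 1 TPM in both libraries. The share was 21% of all annotated genes and 48.9% of protein-coding genes. The exception was Car9. Ordered by mean TPM, the genes ran Egln1, Epas1, Egln3, Egln2, Hif1a, Arnt, Adm, Vhl, Ankrd37 and Car9. Among neighbours in this order, the libraries of Egln3 and Egln2 overlapped, and so did those of Vhl and Ankrd37. Egln1 lay above Epas1 in both libraries, but in the kallisto-layout tables it did so in library 2 and lay below it in library 1. Adm lay above Vhl, and there too the kallisto-layout values overlapped.

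**Figure D1:**
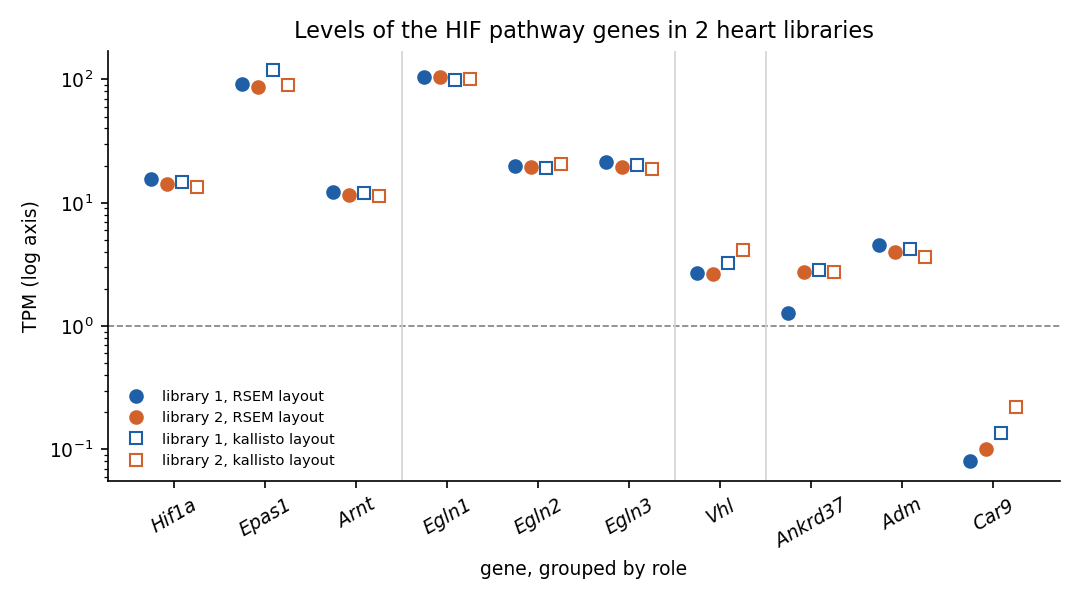
TPM on a log axis for each gene, grouped by role, in library 1 (blue) and library 2 (orange). Filled circles are the RSEM-layout tables, open squares the kallisto-layout tables, and the dashed line marks 1 TPM. Egln1 and Epas1 stand near 100 TPM, Car9 lies below 1 TPM in every table, and the libraries of Ankrd37 part only in the RSEM-layout tables.

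The HIF-2 alpha transcript was far more abundant than that of HIF-1 alpha. Epas1 (ENSMUSG00000024140.10, chromosome 17, 86753700 to 86833410, plus strand, mm10) encodes HIF-2 alpha, the form known for endothelial cells, and stood at 91.4 TPM in library 1 and 87.2 in library 2. Hif1a (ENSMUSG00000021109.13, chromosome 12, 73901375 to 73947530, plus strand), the broadly expressed HIF-1 alpha, stood at 15.5 and 14.1 TPM. Neither library of Hif1a came near those of Epas1. The ratio of Epas1 to Hif1a was 6.05 ± 0.189, with 5.91 in library 1 and 6.18 in library 2. The kallisto-layout tables gave 7.38 ± 0.984. Of the 11650 genes detected in both libraries, 94.7% lay at or below Epas1 and 70.3% at or below Hif1a.

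Arnt (ENSMUSG00000015522.18, chromosome 3, 95434388 to 95497240, plus strand), the shared partner of the alpha subunits, stood at 12.3 TPM in library 1 and 11.5 in library 2. Epas1 exceeded it 7.50-fold ± 0.0974 and Hif1a exceeded it 1.24-fold ± 0.0227. The summed alpha transcripts were 8.74 ± 0.0747 times as abundant as Arnt. The other subunits of the family were low. Hif3a, a further alpha subunit, stood at 0.825 ± 0.106 TPM, but at 1.13 in library 1 and 1.46 in library 2 of the kallisto-layout tables, where it counted as detected. Arnt2, the relative of Arnt known from neural tissue, stood at 0.150 ± 0.0283.

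Egln1 supplied most of the prolyl hydroxylase transcript. Egln1 (ENSMUSG00000031987.6, chromosome 8, 124908587 to 124949324, minus strand), which encodes PHD2, the main HIF hydroxylase in normal oxygen, stood at 104.32 TPM in library 1 and 103.84 in library 2. This was the smallest relative gap between the libraries among the 10 genes. The deposited credibility intervals of Egln1, 100.3 to 103.97 TPM in library 1 and 99.7 to 103.4 in library 2, lay below the listed estimates. Egln2 (ENSMUSG00000058709.11, chromosome 7, 27158658 to 27166802, minus strand), encoding PHD1, stood at 19.8 and 19.6 TPM. Egln3 (ENSMUSG00000035105.5, chromosome 12, 54178981 to 54203860, minus strand), encoding PHD3 and itself a HIF target, stood at 21.6 and 19.6.

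Egln1 held 72.1% ± 0.672 of the summed TPM of the Egln genes, Egln3 14.3% ± 0.776 and Egln2 13.7% ± 0.103. The kallisto-layout tables gave Egln1 71.7% ± 0.193. Egln2 and Egln3 could not be ordered, since their libraries overlapped in both kinds of table. Together the hydroxylase transcripts summed to 144.4 ± 1.82 TPM, or 1.39 ± 0.0349 times the sum of Hif1a and Epas1. The asparaginyl hydroxylase Hif1an, known as FIH, which blocks coactivator binding by HIF, stood at 17.9 ± 0.453 TPM, below the libraries of Egln2 and Egln3.

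Vhl (ENSMUSG00000033933.13, chromosome 6, 113623959 to 113631633, plus strand), the substrate receptor of the ligase, stood at 2.67 TPM in library 1 and 2.65 in library 2. With all transcripts summed, its partners in the ligase were all higher. The adaptors Elob and Eloc stood at 107.4 ± 7.21 and 49.1 ± 1.32 TPM, the RING protein Rbx1 at 36.0 ± 0.474 and the scaffold Cul2 at 18.1 ± 1.22. On protein-coding transcripts alone the order of Cul2 and Vhl was reversed, with Cul2 at 2.37 TPM in library 1 and 2.21 in library 2 and Vhl at 2.56 and 2.38, and Elob stood at 53.3 and 36.9. Elob, Eloc, Rbx1 and Cul2 also serve other ligases. Egln1 exceeded Vhl 39.1-fold ± 0.0804 in the RSEM-layout tables and 27.3-fold ± 4.35 in the kallisto-layout tables.

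The targets spanned a wide range. Adm (ENSMUSG00000030790.15, chromosome 7, 110627661 to 110629820, plus strand), encoding the vasodilator peptide adrenomedullin, had 4.54 TPM in library 1 and 3.98 in library 2. Ankrd37 (ENSMUSG00000050914.16, chromosome 8, 45996902 to 46005707, minus strand), an ankyrin repeat gene induced by HIF-1, had 1.28 and 2.75. Car9 (ENSMUSG00000028463.14, chromosome 4, 43506966 to 43513729, plus strand), the cell surface carbonic anhydrase widely used as a hypoxia marker in tumours, had 0.08 and 0.10. Car9 rested on 5 expected counts in library 1 and 2 in library 2. The authors' deposited table gave Car9 credibility intervals of 0.205 to 1.01 TPM in library 1 and 0.219 to 1.18 in library 2, which lay above the listed estimates. The ratio of its scaled counts, library 1 over library 2, was 2.33 with an interval of 0.381 to 24.4, so no difference was detectable at this depth.

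HIF binds the letters ACGTG or GCGTG, the core of the hypoxia response element. Both were searched on either strand in the 250 bases before each gene's RefSeq start (GRCm38.p6). Any match was present in 38.6% of 32851 such windows in the RefSeq table. Of the 10 genes, 9 had a window in the table and 8 had a match. Vhl had none, and Epas1 was not matched to the table. The windows of the 4 target genes, Egln3 included, are shown because these genes range from 0.09 to 20.6 TPM on average while each holds a match. They run 5′ to 3′ on the gene's strand, with the matches in capitals. The windows are Ankrd37 chr8:45999851-46000100 and Egln3 chr12:54203875-54204124 on the minus strand, and Adm chr7:110627407-110627656 and Car9 chr4:43506776-43507025 on the plus strand.
Ankrd37: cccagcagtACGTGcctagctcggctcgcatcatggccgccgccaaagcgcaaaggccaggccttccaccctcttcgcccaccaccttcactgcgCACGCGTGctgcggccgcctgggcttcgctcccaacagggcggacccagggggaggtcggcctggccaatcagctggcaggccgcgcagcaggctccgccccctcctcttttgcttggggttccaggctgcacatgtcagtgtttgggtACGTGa
Egln3: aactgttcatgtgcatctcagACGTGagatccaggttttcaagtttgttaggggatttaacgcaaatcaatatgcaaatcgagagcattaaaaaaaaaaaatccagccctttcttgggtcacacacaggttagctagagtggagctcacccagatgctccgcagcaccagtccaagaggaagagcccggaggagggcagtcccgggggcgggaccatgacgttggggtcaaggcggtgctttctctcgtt
Adm: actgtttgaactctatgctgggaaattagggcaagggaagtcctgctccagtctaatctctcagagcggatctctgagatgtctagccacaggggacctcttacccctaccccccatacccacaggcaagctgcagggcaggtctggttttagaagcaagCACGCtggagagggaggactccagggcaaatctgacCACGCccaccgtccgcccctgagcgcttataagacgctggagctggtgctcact
Car9: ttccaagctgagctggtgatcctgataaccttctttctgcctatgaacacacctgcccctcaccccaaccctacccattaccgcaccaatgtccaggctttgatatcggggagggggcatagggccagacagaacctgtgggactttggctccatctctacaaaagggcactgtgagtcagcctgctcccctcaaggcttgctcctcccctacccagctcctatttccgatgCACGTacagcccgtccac
Ankrd37 held 4 matches, of which 2 overlap on opposite strands, and at least 4 were found in 2.58% of all windows. Adm held 2, both on the opposite strand, while Egln3 and Car9 held 1 each. The Car9 match began 18 bases before the RefSeq start, and the annotation used for the counts places the first base of Car9-201 60 bases before that start. Ankrd37-201 and Egln1-201 are also annotated to begin before their RefSeq starts. The Ankrd37 match 6 bases before its RefSeq start, and the Egln1 match 68 bases before its own, thus lie downstream of the annotated first base. Among the other genes, Egln2 held 4 matches in its upstream window and 1 in its other window, Hif1a held 3, Egln1 2 and Arnt 1. Of the Hif1a matches, 2 overlap on opposite strands. The RefSeq start of Hif1a, at 73907867, lies before the annotated first base of Hif1a-201, at 73907904. A match describes the letters in the window, and binding was not measured here.

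Transcript tables gave the same leading transcript in both libraries and both quantifications for 8 of the 10 genes, among them Egln1 and Egln3, which have 1 annotated transcript each. Egln2-201 held 89.7% of Egln2 in library 1 and 91.8% in library 2. Adm-201 held all of Adm. Arnt was divided between the coding transcripts Arnt-202, with 46.1% in library 1 and 49.5% in library 2, and Arnt-203, with 35.3% and 34.5%.

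Most of the Hif1a level lay on the coding transcripts Hif1a-201 and Hif1a-202, which have different annotated starts. Hif1a-201 held 66.8% of the Hif1a TPM in library 1 and 75.0% in library 2. Hif1a-202, which begins 6529 bases further upstream and has a coding sequence 78 bases shorter, held 19.9% in library 1 and 13.7% in library 2. The kallisto-layout tables gave Hif1a-202 24.4% and 11.7%. The upstream form thus had the larger share in library 1 in both kinds of table. The spread of 2 libraries is the only error known for this share. At the 3′ end of the gene, Gm49321, annotated as protein coding on the same strand, overlaps Hif1a by 9878 bases. It was listed at 2.09 TPM in library 1 and 1.73 in library 2, on only 23.91 and 18.67 expected counts. Hif1a had 2088.05 and 1825.21. Because the counts are fractional, reads were shared between entries, but the number shared is not given.

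Epas1 depended on a short entry. The full-length coding transcript Epas1-201, of 5516 bases, stood at 88.9 TPM in library 1 and 87.2 in library 2, and at 81.6 and 82.2 in the kallisto-layout tables. The processed transcript Epas1-202, of only 332 bases and not annotated as coding, stood at 2.51 and 0 TPM, but at 36.9 and 8.11 in the kallisto-layout tables. There it received 181 of the 17777 estimated counts of Epas1 in library 1. Because TPM divides by length, these few counts made 31.1% of the gene's TPM. The Epas1 total of the kallisto-layout tables, 118 TPM in library 1 and 90.4 in library 2, therefore differs between the libraries where the coding transcript does not.

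Vhl and Ankrd37 also differed between the tables. Vhl-201, the full coding transcript, held 95.9% of Vhl in library 1 and 89.8% in library 2, against 69.9% and 54.8% in the kallisto-layout tables, where entries of at most 582 bases, not annotated as protein coding, took the rest. The level of Vhl-201 itself was close, at 2.56 and 2.38 TPM and at 2.28 and 2.28 in the kallisto-layout tables. For Ankrd37 the kallisto-layout tables placed the 416-base retained intron entry Ankrd37-204 first in library 1 with 56.7%, and listed it at 0 in library 2.

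**Figure D2:**
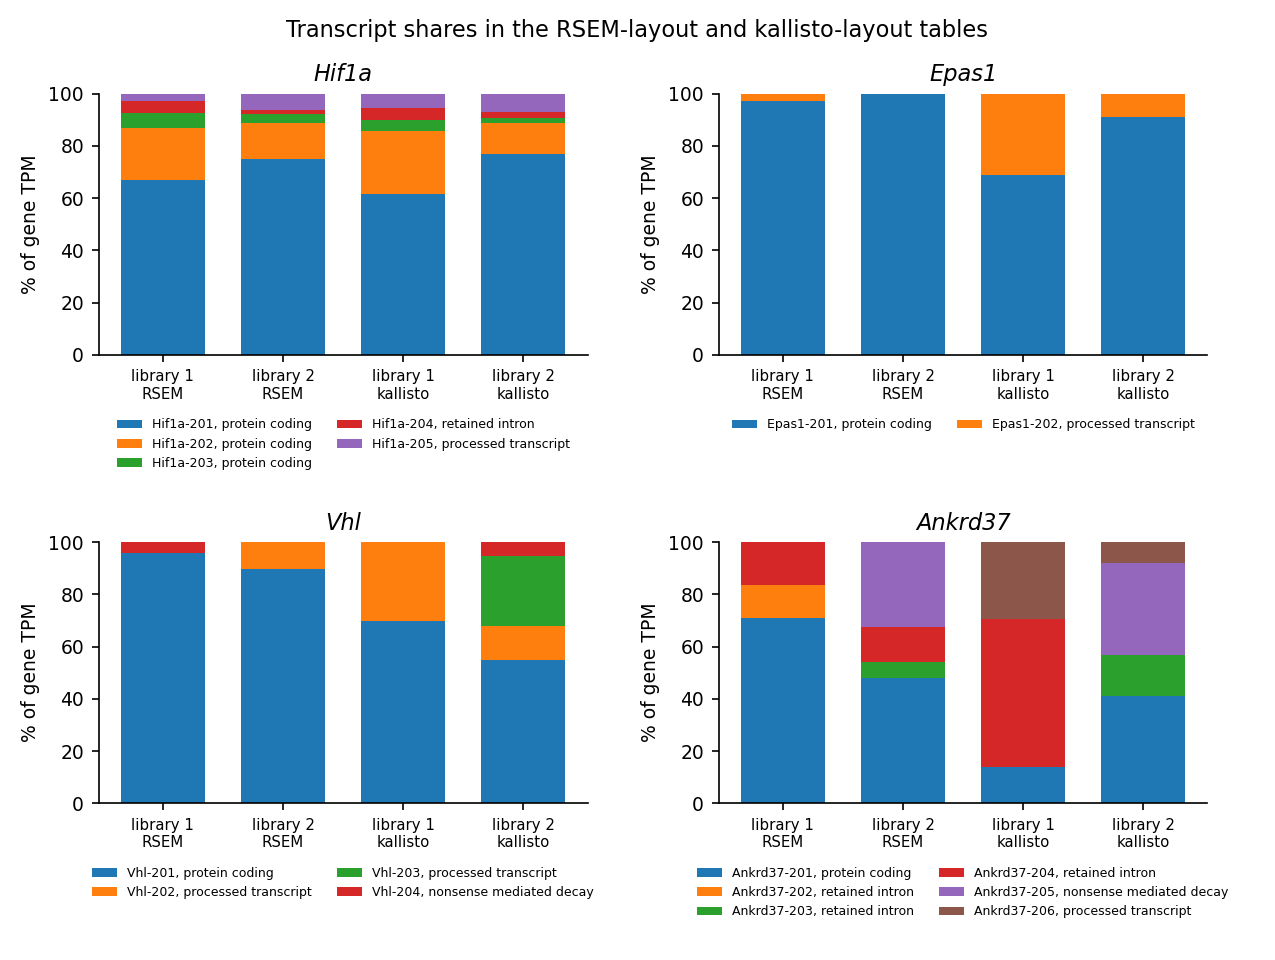
Share of the gene's TPM held by each annotated transcript (percent, bars stacked to the full gene) for Hif1a, Epas1, Vhl and Ankrd37, in both libraries and both kinds of table. Epas1-202 grows to 31.1% of Epas1 in library 1 of the kallisto-layout tables, and Ankrd37 has no common leading transcript.

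Between the libraries, the members other than Ankrd37 and the scarcely counted Car9 had count ratios, library 1 over library 2 and scaled by library total, of 0.987 to 1.13. The log2 ratio of library 1 over library 2, with 1 added to each TPM, was taken over 11940 genes with at least 10 counts in a library and a mean of at least 1 TPM. Past 2-fold lay 0.603% of these genes, 0.226% higher in library 1 and 0.377% higher in library 2. Of the 9 members that passed the filter, all but Car9, 0 lay past 2-fold on this scale. Without the added 1, the TPM of Ankrd37 differed by more than 2-fold, with a ratio of 0.465, and with 0.1 added its log2 ratio was -1.05. The median log2 ratio of the 10 members was 0.04, against 0.01 over all genes tested. In all, 8 members were above 0, where 51.2% of the genes tested were, but only 5 were with FPKM and 6 in the kallisto-layout tables.

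The member with the widest gap was Ankrd37. It had 31 expected counts in library 1 and 63 in library 2, and its count ratio, scaled by library total, was 0.458 with a 95% exact (Clopper-Pearson) interval of 0.288 to 0.715. Its log2 ratio was -0.72. The kallisto-layout tables gave nearly the same counts, 31 and 62, but levels of 2.83 TPM in library 1 and 2.75 in library 2, with 56.7% of the library 1 level on Ankrd37-204. The direction of the difference in summed TPM thus changed with the table, while the counts were higher in library 2 in both. The coding transcript Ankrd37-201 stood at 0.910 TPM in library 1 and 1.32 in library 2. In the kallisto-layout tables it stood at 0.396 and 1.13, again higher in library 2. On the opposite strand, Lrp2bp overlaps Ankrd37 by 6405 bases and had 26 and 35 counts. Ufsp2, also on that strand, overlaps Ankrd37 by only 57 bases but had 486 and 470 counts. The library kit is directional, but whether the counting used strand is not given in the sources used here. All 5 adipocyte markers were also higher in library 2, 4 of them past 2-fold, and so were all 4 atrial markers. Their part in the Ankrd37 difference was not tested.

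Egln3 was the only other member whose count interval left out 1, with a ratio of 1.09 and an interval of 1.02 to 1.16. Such intervals cover counting error only and left out 1 for 2 of the 9 members that passed, against 23.3% of the genes tested. The background was 10.4% for genes higher in library 1, as Egln3 was, and 12.8% for genes higher in library 2, as Ankrd37 was. Hif1a had a ratio of 1.07 (0.99972 to 1.13) and Adm of 1.13 (0.911 to 1.40). Epas1 stood at 1.01 (0.988 to 1.03) and Egln1 at 0.994 (0.969 to 1.02), the narrowest intervals of the 10. All 6 endothelial markers were higher in library 1, by a median log2 ratio of 0.13, where 51.2% of the genes tested were higher. In the kallisto-layout tables Cdh5 was lower in library 1, at 48.9 TPM against 53.2. The 5 fibroblast markers (Pdgfra, Dcn, Col1a1, Dpt and Tcf21) were also all higher in library 1 by TPM, with a median log2 ratio of 0.05. By scaled counts Col1a1 had a ratio of 0.996 (0.941 to 1.05), and the interval left out 1 for 2 of the 5. The 2 mesothelial markers, Upk3b and Msln, were higher in library 1 too, by a median log2 ratio of 0.28. Other marker lists were mixed. Of the pericyte and smooth muscle markers, 3 were higher in library 1 and 2 in library 2. The numbers were 2 and 3 for macrophage markers, 2 and 1 for blood markers, and 2 and 3 for cardiomyocyte markers. The part of any of these cell types in the Egln3 and Hif1a values was not tested.

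**Figure D3:**
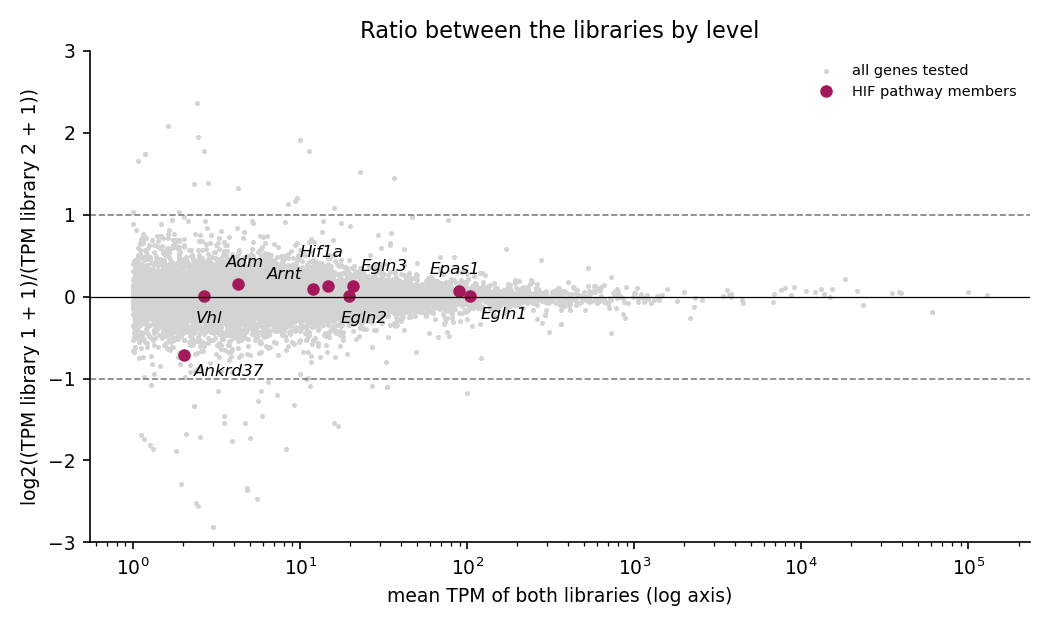
Log2 ratio of library 1 over library 2 against mean TPM (log axis) for the genes tested (grey) and the 9 members that passed the filter (purple), with dashed lines at 2-fold. All members lie within the lines, Ankrd37 lowest at -0.72. Another 10 genes lie beyond the plotted range.

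Across the rest of the pathway, 62 of 78 other listed genes were detected, against 48.9% of protein-coding genes. Of the 62 that passed the filter on low values, 1 lay past 2-fold, against 0.603% of the genes tested. The count interval, which covers counting error only, left out 1 for 24 of these 62, against 23.3% of the genes tested. Of the 24, 11 were higher in library 1 and 13 in library 2. Among regulators of HIF, all 10 listed were detected. They were led by the chaperone Hsp90ab1 at 362 ± 7.38 TPM and the scaffold protein Rack1 at 121 ± 1.40. The deubiquitinase Usp20 stood at 19.8 ± 0.566 and Cited2, which competes with HIF for its coactivators, at 15.6 ± 2.03.

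Of 15 targets in glycolysis and glucose uptake, 11 were detected, with a list median of 37.0 TPM. The 3 highest, Aldoa, Ldha and Pgk1, lay above Egln1 in both libraries and in both kinds of table. Aldoa stood at 1210.3 ± 15.7 TPM, Ldha at 245 ± 2.47, Pgk1 at 145 ± 10.6 and the hexokinase Hk2 at 128 ± 1.73. In the kallisto-layout tables Hk2, at 94.5 TPM in library 1 and 96.2 in library 2, lay below Egln1. Of the glucose transporters, Slc2a1 stood at only 3.92 ± 0.148 and Slc2a3 at 0.680 ± 0.127. These enzymes serve basal metabolism too, so their level is no measure of HIF activity.

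Of 29 other targets, Adm, Ankrd37, Car9 and Egln3 included, 26 were detected. The highest were the mitochondrial proteins Fam162a at 74.3 ± 4.09 TPM, Bnip3 at 72.4 ± 0.460 and Higd1a at 69.5 ± 0.990. The vascular growth factor Vegfa stood at 58.2 ± 5.59. In the kallisto-layout tables the order changed, with means of 88.4 TPM for Higd1a, 86.5 for Fam162a, 66.1 for Vegfa and 61.7 for Bnip3. Egln3, at 20.6 ± 1.38, came below these, Adm at 4.26 ± 0.396 and Ankrd37 at 2.02 ± 1.04 far below. The target genes Car9 and Car12 and erythropoietin, Epo, were not detected. Epo had 0 counts in both libraries, which allows up to 3 counts per library.

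**Figure D4:**
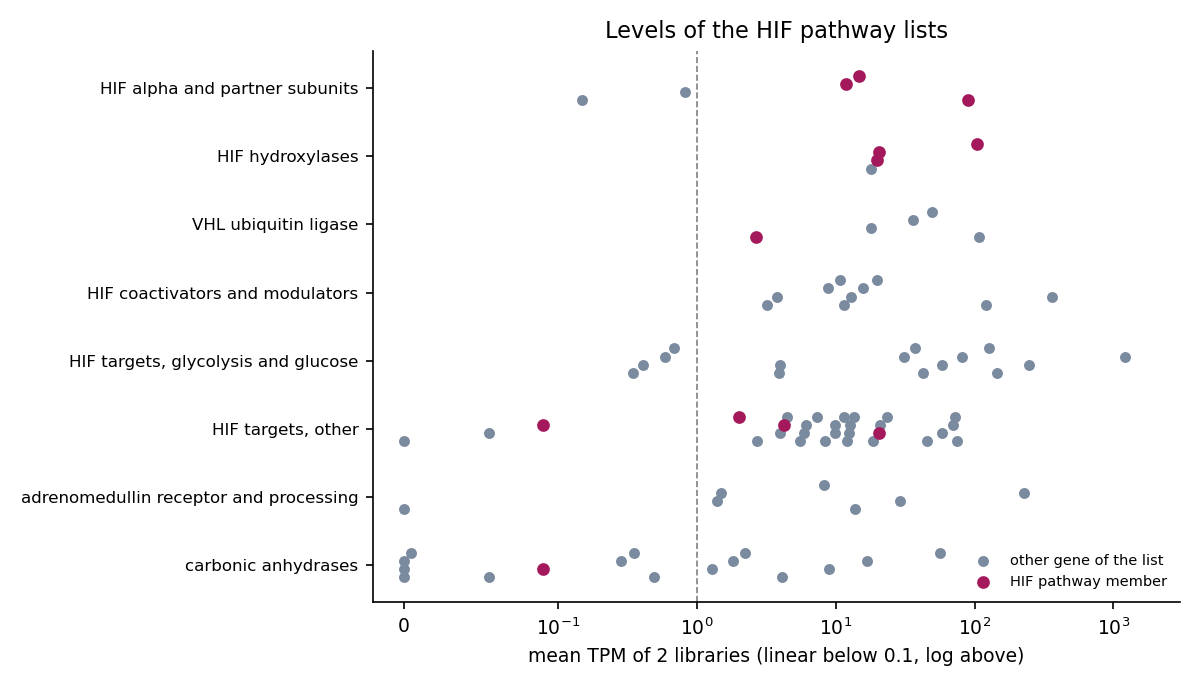
Mean TPM of each gene of the 8 pathway lists (1 point per gene, shifted vertically for visibility), with the 10 members in purple and a dashed line at 1 TPM. The axis is linear below 0.1 and log above. Vhl is the lowest point of its ligase when all transcripts are summed, though not on protein-coding transcripts alone, and Car9 lies among the carbonic anhydrases below 1 TPM.

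Of the 7 genes listed for adrenomedullin processing and reception, 6 were detected. Pam, the enzyme that amidates the peptide, stood at 227 ± 8.65 TPM. The receptor Calcrl stood at 8.29 ± 0.587 and its partner Ramp2 at 28.8 ± 1.44, while the alternative partners Ramp1 and Ramp3 stood at 1.49 ± 0.0283 and 1.39 ± 0.156, below Adm. On protein-coding transcripts alone, Calcrl stood at 5.07 TPM in library 1 and 5.35 in library 2, and Ramp2 at 18.7 and 15.9. The scavenger receptor Ackr3 stood at 13.8 ± 1.32. The related ligand Adm2 had 0 counts in both libraries.

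Car9 was among 9 of the 16 listed carbonic anhydrases that were not detected. The family was led by the membrane enzyme Car14 at 60.2 TPM in library 1 and 52.6 in library 2. The membrane-anchored Car4 stood at 9.13 and 8.66, and Car8, a relative without enzyme activity, at 4.45 and 3.72. Car3, a cytosolic form abundant in fat and slow muscle, stood at 7.91 TPM in library 1 and 25.7 in library 2. It was the 1 pathway gene past 2-fold among those that passed the filter, with 1 added to each TPM. Its log2 ratio was -1.58, in the same direction as the 5 adipocyte markers, whose part was not tested. Car1, Car5a and Car6 had 0 counts in both libraries.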

How the data were processed

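Total RNA of 2 heart libraries was compared as a single group. Per the deposited readme, reads were processed with mm10 and GENCODE M21. Per the file headers, the deposited gene and transcript tables hold expected counts, TPM and FPKM in the layout of RSEM, with credibility intervals of TPM whose level is not stated. Further deposited tables give estimated counts and TPM per transcript in the layout of kallisto. The aligner, the versions of these tools and their strand setting were not given in the sources used.

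Genes were matched by symbol, totals were taken over annotated genes without the ERCC spike-ins, and coordinates came from GENCODE M21. Expected counts were rounded for exact 95% intervals of count ratios, which cover counting error only. The log2 ratio used a pseudocount of 1 TPM, which understates the ratio of low genes. Detection meant at least 1 TPM in both libraries. edgeR 4.0.16 (TMM) and DESeq2 1.42.0 (size factors), in R 4.3.3, served as other scalings. Other tools were Python 3.11.15, pandas 2.3.3, scipy 1.17.1 and matplotlib 3.10.9. Promoter sequences are from RefSeq (GRCm38.p6), matched for 9 members.

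Members and lists were chosen with earlier results of these data known. Besides the members, the text names the 4 highest other genes of each list, those at 0 counts and those past 2-fold. Slc2a1, Slc2a3, Car12, Ramp1 and Ramp3 were named after their values were seen, as were the neighbours that overlap a member.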

Additional observations from a re-analysis of the deposited data

How the results depend on the processing

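The count of detected members, 9, became 8 with protein-coding transcripts only, 6 at 5 TPM, and 9 with every other setting. The ratio of Hif1a to Epas1, 0.165, was 0.137 in the kallisto-layout tables, 0.155 with protein-coding transcripts only, and 0.150 with full-length coding transcripts of the kallisto-layout tables, a setting chosen after seeing the data. Without either replicate it ranged from 0.162 to 0.169. The Egln1 share ranged from 71.6% to 72.6% in the same way, and was 72.9% with protein-coding transcripts only. The number of genes past 2-fold, 72, of which 27 were higher in library 1 and 45 in library 2, changed most. It was 121 with TPM outside the mitochondrial chromosome, 31 (9 and 22) with protein-coding transcripts only, 153 (74 and 79) with a pseudocount of 0.1, 159 (81 and 78) with no filter on low values, and 43 with counts scaled by TMM or by DESeq2 size factors. The kallisto-layout tables gave 98 (50 and 48). The pseudocount of 0.1 and the TMM and DESeq2 scalings covered the same 11940 genes as the main setting. The pseudocount setting changed only the added constant. The other settings covered fewer or more genes, and what else moved the numbers was not tested. On this scale no member passed 2-fold under these settings except Ankrd37 with a pseudocount of 0.1, at a log2 ratio of -1.05. The median ratio of the members stayed between 0.02 and 0.07. No paired analysis was possible because there is 1 group. With 31 and 63 counts for Ankrd37 and 5 and 2 for Car9, depth limits both.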
